A study of Mus musculus with 18 samples.

Results

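The genes described here are 10 that handle cellular iron or set the sensitivity of a cell to ferroptosis, chosen by name from the 35275 genes of a read count table: *Gpx4*, *Aifm2*, *Acsl4*, *Ftl1*, *Fth1*, *Ncoa4*, *Tfrc*, *Slc11a2*, *Steap3* and *Slc40a1*. All 10 were found under their own symbols. The table holds RNA-seq counts from 18 libraries of mouse malignant peripheral nerve sheath tumor (MPNST) cell lines, 3 lines of each of 2 genotypes with 3 cultures per line, and no tumor gave more than 1 line. Tumors arose in wild-type 129 Sv/Jae mice after injection of the sciatic nerve with an adenovirus that carried Cas9, driven by the CMV promoter, and guide RNAs. In the *Nf1*/*p53* double knockout (dKO) lines the guides targeted *Nf1* and p53 (*Trp53* in the mouse), and in the *Nf1*/*Cdkn2a* dKO lines *Nf1* and the p16 and p19 products of *Cdkn2a*, so that loss of *Nf1* is shared by all lines. No group has intact *Nf1* or is free of the virus. The cells were untreated and grown in DMEM with serum, and the age and sex of the mice were not used here.

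Iron enters most cells bound to transferrin through the transferrin receptor (*Tfrc*), is reduced in the endosome by ferrireductases such as STEAP3 and crosses into the cytosol through the transporter DMT1 (*Slc11a2*). Iron that is not used is stored in ferritin, a shell of light (*Ftl1*) and heavy (*Fth1*) chains that NCOA4 delivers to the lysosome for breakdown, and leaves the cell through ferroportin (*Slc40a1*). Ferroptosis is a form of cell death driven by iron-dependent peroxidation of polyunsaturated phospholipids. ACSL4 supplies their fatty acids, GPX4 reduces the lipid peroxides, and FSP1 (*Aifm2*) reduces ubiquinone to its antioxidant form, ubiquinol.

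Several of these transcripts carry an iron-responsive element, a short hairpin bound by the iron regulatory proteins when iron is scarce. In a 5′ UTR the bound hairpin blocks translation, and in the 3′ UTR of *Tfrc* it protects the RNA from decay. The hairpins are shown because only RNA was counted: through a 5′ UTR hairpin protein output can move without a change in the RNA, whereas the *Tfrc* hairpins act on the RNA level itself. A search of the GENCODE M21 transcripts (genome build GRCm38) for the letters CNNNNNCAGTGN on the sense strand, with 5 stem pairs around the 6-base loop and at most 1 G-U pair, matched a UTR in 69 of 21901 protein-coding genes (0.315%) and in 4 of the 10 genes described here. The 6 loop bases are in capitals, and the unpaired C that the motif opens with is separated from them by 5 bases.

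*Fth1*, 5′ UTR, chr19:9982732-9982760, plus strand: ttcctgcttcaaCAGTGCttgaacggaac
*Ftl1*, 5′ UTR, chr7:45459779-45459807, minus strand: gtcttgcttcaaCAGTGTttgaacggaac
*Slc40a1*, 5′ UTR, chr1:45925465-45925493, minus strand: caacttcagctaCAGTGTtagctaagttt
*Tfrc*, 3′ UTR, chr16:32631219-32631247, plus strand: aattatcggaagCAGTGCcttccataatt
*Tfrc*, 3′ UTR, chr16:32631598-32631626, plus strand: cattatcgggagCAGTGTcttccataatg
*Tfrc*, 3′ UTR, chr16:32631663-32631691, plus strand: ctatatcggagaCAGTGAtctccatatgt
*Tfrc*, 3′ UTR, chr16:32631710-32631738, plus strand: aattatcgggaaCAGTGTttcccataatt

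*Slc11a2* had no match to these letters and pairs. A hairpin with a bulge or an unpaired base in the searched stem would be missed. The absence of a match therefore does not show that *Slc11a2* lacks an element, and the *Tfrc* matches need not be all of its hairpins. A match is a description of the sequence, and binding was not measured.

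Total counts were 19560535 to 28312207 per library and 65206479 to 73065228 per line. *Trp53* was the targeted gene that passed the genotype test, at 94.1, 67.5 and 58.7 CPM (library-scaled counts) in lines 1 to 3 of *Nf1*/*p53* dKO against 247, 246 and 185 CPM in those of *Nf1*/*Cdkn2a* dKO (edgeR quasi-likelihood test, adjusted p = 0.0361). *Cdkn2a* was not lower in the lines labelled *Nf1*/*Cdkn2a* dKO (169, 392 and 285 CPM, against 363, 279 and 42.9). *Nf1*, targeted in all lines, was at 70.0, 33.5 and 27.7 CPM in lines 1 to 3 of *Nf1*/*p53* dKO. In those of *Nf1*/*Cdkn2a* dKO it was at 12.7, 38.3 and 16.2 CPM (edgeR adjusted p = 0.328). A count over a whole gene does not show a small insertion or deletion. The counts of *Cdkn2a* and *Nf1* therefore check neither the labels nor the loss of these genes. The lines are labelled mesenchymal, and all 10 mesenchymal markers reached 1 CPM in a line, with sums of 11097 to 27203 CPM. Of 8 Schwann cell markers, 6 reached 1 CPM in a line, with sums of 3.07 to 13.2 CPM in *Nf1*/*p53* dKO lines and 1.46 to 2.71 CPM in *Nf1*/*Cdkn2a* dKO lines, and *Sox10* stayed under 0.1 CPM in every line. The epithelial markers summed to between 2.67 and 739 CPM, with lines of both genotypes at either end.

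Levels below are CPM, counts relative to the library total after adjustment by TMM factors, with the 3 cultures of a line summed, and genotype differences are log2 fold changes of *Nf1*/*Cdkn2a* dKO over *Nf1*/*p53* dKO with the line as the unit (n = 3 lines per genotype). Of 15207 genes tested, 274 (1.8%) passed at an adjusted p under 0.05 in edgeR's quasi-likelihood test, 97 higher (0.638%) and 177 lower (1.16%) in *Nf1*/*Cdkn2a* dKO lines. None of the 10 iron and ferroptosis genes passed, although all 10 entered the test. At an unadjusted p under 0.05 there were 2 of the 10 (*Ftl1* and *Slc40a1*), where 22.4% of all genes tested were. The 2 sets of lines did not overlap for 3 of the 10 (*Ftl1*, *Fth1* and *Slc40a1*), all higher in *Nf1*/*Cdkn2a* dKO lines, where 31.4% of all genes did not overlap in either direction and 14.8% in this one. The median log2 fold change was 0.11 over the 10 genes and -0.02 over all genes tested.

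**Figure D1:**
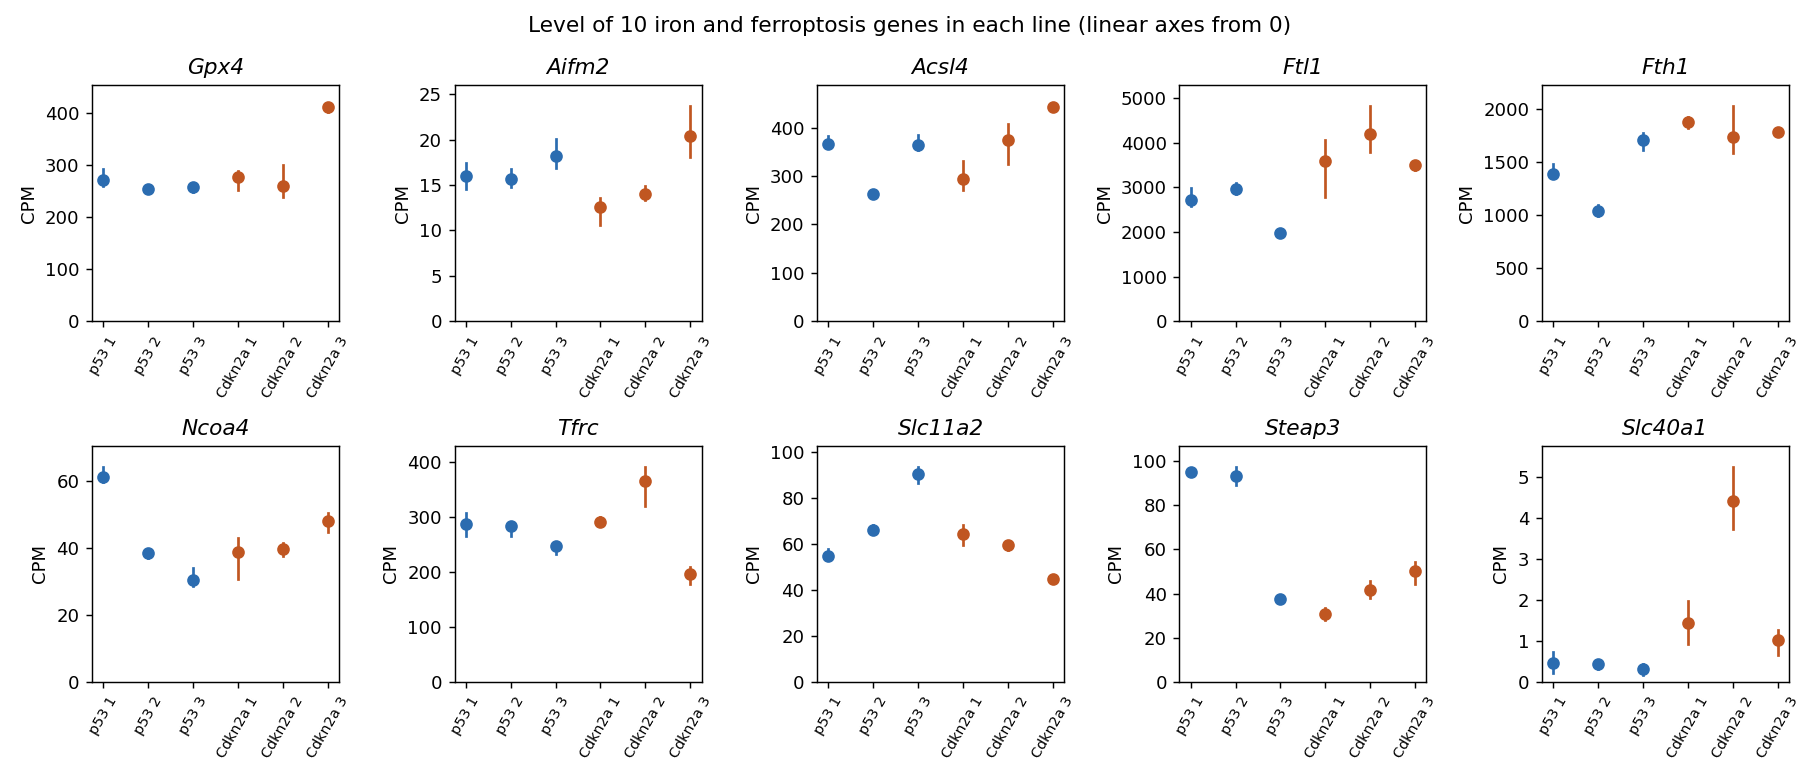
Level of each gene in the 6 lines, in CPM on linear axes that start at 0. Points are the lines (blue *Nf1*/*p53* dKO, orange *Nf1*/*Cdkn2a* dKO) and bars run from the lowest to the highest of the 3 cultures. Cultures were scaled by TMM factors of their own, so a point can lie slightly outside its bar. *Ftl1*, *Fth1* and *Slc40a1* are the genes whose lines do not overlap between genotypes.

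The ferritin chains were the most abundant of the 10 transcripts. *Ftl1* (light chain, chr7:45457944-45459884) was at 2722, 2967 and 1980 CPM in lines 1 to 3 of *Nf1*/*p53* dKO and at 3585, 4205 and 3492 CPM in *Nf1*/*Cdkn2a* dKO lines 1 to 3. Every *Nf1*/*Cdkn2a* dKO line was above every *Nf1*/*p53* dKO line, but the cultures overlapped, since the lowest culture of *Nf1*/*Cdkn2a* dKO line 1 was at 2783 CPM and the highest of *Nf1*/*p53* dKO line 2 at 3103 CPM. The means were 2556 ± 514 and 3761 ± 388 CPM (SD), a log2 fold change of 0.56 ± 0.20 (SE; adjusted p = 0.168 by edgeR). *Fth1* (heavy chain, which oxidizes the iron taken up, chr19:9980598-9985098) was at 1385, 1041 and 1703 CPM for *Nf1*/*p53* dKO, against 1876, 1737 and 1779 CPM for *Nf1*/*Cdkn2a* dKO. The gap between the sets of lines was narrow, between 1703 and 1737 CPM, and the cultures of those neighboring lines overlapped. Its log2 fold change was 0.38 ± 0.20 (SE; edgeR adjusted p = 0.314), and its *Nf1*/*Cdkn2a* dKO lines were the closest to each other of any of the 10 genes (highest over lowest line 1.08).

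Together the ferritin chains took 0.436, 0.409 and 0.390% of the counts of *Nf1*/*p53* dKO lines and 0.522, 0.574 and 0.496% in the *Nf1*/*Cdkn2a* dKO lines. Per kilobase of annotated exon, the *Ftl1* level exceeded the *Fth1* level in every line, by a ratio of 3.16, 4.59 and 1.87 in *Nf1*/*p53* dKO lines and 3.08, 3.90 and 3.16 in *Nf1*/*Cdkn2a* dKO lines. The widest and the narrowest ratio were thus both in *Nf1*/*p53* dKO lines: line 2 had the lowest *Fth1* level and line 3 the lowest *Ftl1* level of the 6. *Ftl1* has near copies, of which 7 in the table held 4576 counts in all, 0.351% of the counts of *Ftl1* itself. The copy *Ftl1-ps1*, 99.56% identical over 910 bases, was at 7.49, 6.45 and 5.23 CPM and at 10.4, 11.9 and 11.3 CPM, in the same order of genotypes, and how reads were shared between the copies is not given in the sources used here. With these 7 copies summed into *Ftl1* the log2 fold change stayed at 0.56, which counts of 0.351% could hardly move. Copies without a row, and reads dropped because they match several copies, were not in that sum.

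*Ncoa4* (the ferritin cargo receptor, chr14:32159865-32179855) was at 61.2, 38.4 and 30.5 CPM for *Nf1*/*p53* dKO and 38.9, 39.6 and 47.9 CPM for *Nf1*/*Cdkn2a* dKO. The highest and the lowest line were both *Nf1*/*p53* dKO, and the genotypes did not separate (log2 fold change -0.04 ± 0.27 SE, edgeR adjusted p = 0.944). Its level is uncertain, because the processed pseudogene *Gm6768* (chr12:119260978-119262855) is 99.894% identical to it over 1878 bases and held 8526 counts, 47.6% of the 17895 of *Ncoa4*. *Gm6768* followed *Ncoa4* at 0.390 to 0.534 of its CPM in each line. Summed, an alternative chosen after seeing the data, the pair was at 90.9, 53.4 and 44.3 CPM and at 59.7, 58.8 and 72.0 CPM, with a log2 fold change of 0.01.

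**Figure D2:**
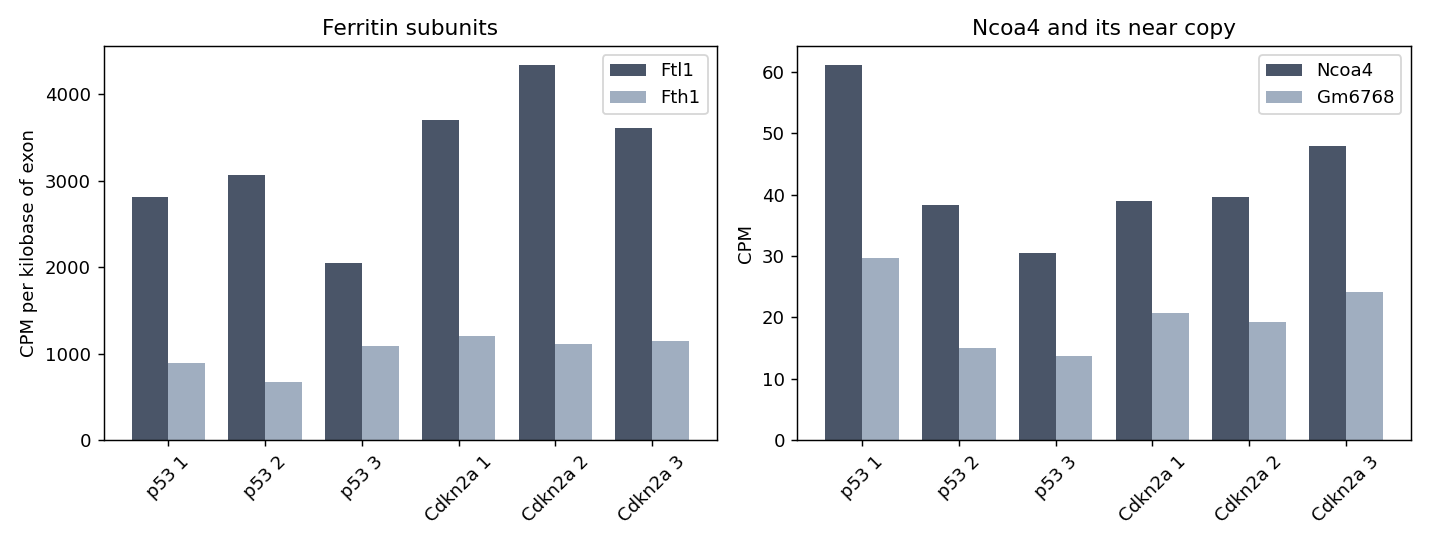
Left, *Ftl1* and *Fth1* levels in each line, in CPM per kilobase of annotated exon, where *Ftl1* is 1.87 to 4.59 times *Fth1*. Right, *Ncoa4* and its near copy *Gm6768* in CPM, where the copy stays at 0.390 to 0.534 of *Ncoa4*; bars are single lines with the cultures summed and carry no error.

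Of the uptake genes, *Tfrc* (chr16:32608920-32632794) was at 287, 283 and 247 CPM for *Nf1*/*p53* dKO and 292, 365 and 197 CPM for *Nf1*/*Cdkn2a* dKO. *Nf1*/*Cdkn2a* dKO line 2 was the highest and line 3 the lowest of all 6, so that the genotype means of 272 ± 22.2 and 285 ± 84.6 CPM (SD) differed by far less than the lines within the second genotype (log2 fold change 0.06, 95% interval -0.51 to 0.63). *Slc11a2* (chr15:100387898-100425072) was at 54.7, 66.3 and 90.4 CPM against 64.5, 59.5 and 44.7 CPM. Its ranges overlapped (log2 fold change -0.33 ± 0.23 SE, edgeR adjusted p = 0.455). *Steap3* (chr1:120190757-120272705) was at 95.2, 93.1 and 37.5 CPM against 30.6, 41.7 and 50.1 CPM. The first pair of *Nf1*/*p53* dKO lines stood apart from the other 4 lines, and *Nf1*/*p53* dKO line 3 lay among the *Nf1*/*Cdkn2a* dKO lines. The log2 fold change was -0.88 ± 0.38 (SE; edgeR adjusted p = 0.235), and limma-voom over all 18 cultures, in which the line was a random effect, called it (-0.81, adjusted p = 0.0396), a fit where 16.6% of 13110 genes were called.

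The exporter *Slc40a1* (chr1:45908068-45926523) had the largest fold difference of the 10 genes and the fewest reads. It was counted 36, 30 and 23 times in *Nf1*/*p53* dKO lines 1 to 3 and 90, 305 and 65 times in *Nf1*/*Cdkn2a* dKO lines 1 to 3, or 0.464, 0.424 and 0.318 CPM against 1.44, 4.40 and 1.02 CPM. The lines did not overlap, single cultures held 4 to 18 reads in the first genotype and 14 to 107 in the second, and *Nf1*/*Cdkn2a* dKO line 2 was 4.33 times line 3. The log2 fold change of 2.50 ± 0.64 (SE; 95% interval 0.96 to 4.04) did not pass in edgeR (adjusted p = 0.0930). DESeq2 on the same 6 lines called it (2.52, adjusted p = 0.00370), where it called 14.3% of all genes against the 1.8% of edgeR. Without *Nf1*/*Cdkn2a* dKO line 2 the log2 fold change was 1.62 (edgeR adjusted p = 0.192).

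Ferroportin is abundant in macrophages, so the macrophage and leukocyte markers were read beside it. The 12 markers summed to 15.1 to 28.6 CPM in *Nf1*/*p53* dKO lines and 19.0 to 40.0 CPM in *Nf1*/*Cdkn2a* dKO lines, *Cd14* made up 64.6% of that sum, and 5 of the 12 reached 1 CPM in a line. The highest sum was in *Nf1*/*Cdkn2a* dKO line 2, which also had the highest *Slc40a1*. The single markers did not all follow the sum. *Nf1*/*Cdkn2a* dKO line 2 was the highest line for *Cd14* (27.9 CPM), *Cd68* (7.14 CPM), *Mrc1* (3.74 CPM) and *Itgam* (0.115 CPM). The same line was the lowest for *Csf1r* (0.721 CPM) and *Ptprc* (0.144 CPM). *Adgre1*, *Tyrobp* and *Spic* stayed under 0.1 CPM in every line. By the study's methods the lines were passaged many times before use, a step meant to leave tumor cells alone. The part of such cells in the *Slc40a1* difference was not tested, and in bulk RNA fewer cells of a type and less RNA per cell cannot be told apart.

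No genotype difference was detected in the genes that act on lipid peroxides and their supply. *Gpx4* (chr10:80047166-80056439) was at 271, 254 and 256 CPM for *Nf1*/*p53* dKO and 276, 259 and 410 CPM for *Nf1*/*Cdkn2a* dKO. Only *Nf1*/*Cdkn2a* dKO line 3 stood apart from the other 5, and the log2 fold change of 0.27 ± 0.20 (SE; edgeR adjusted p = 0.468) became 0.04 without it. The near copies of *Gpx4*, *Gpx4-ps2* (99.727% identical over 733 bases) and *AC122253.3*, had no counts to read, so reads shared with them cannot be checked. *Aifm2* (chr10:61715263-61739260) was at 16.0, 15.6 and 18.2 CPM against 12.5, 14.1 and 20.5 CPM. Both ends of its range were *Nf1*/*Cdkn2a* dKO lines (log2 fold change -0.08, 95% interval -0.66 to 0.49). *Acsl4* (chrX:142317993-142390535) was at 366, 262 and 365 CPM against 294, 374 and 443 CPM, with overlapping ranges (log2 fold change 0.16, 95% interval -0.35 to 0.68). *Nf1*/*Cdkn2a* dKO line 3 was thus the highest line for *Gpx4*, *Aifm2* and *Acsl4* alike, and the lowest for *Tfrc* and *Slc11a2*.

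**Figure D3:**
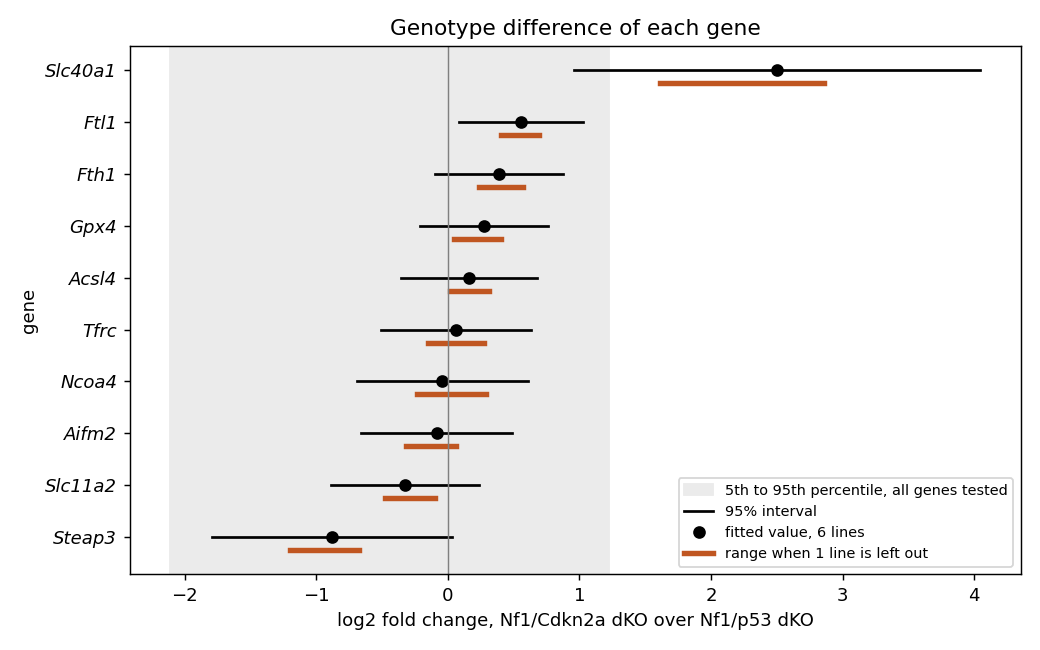
Log2 fold change of each gene, *Nf1*/*Cdkn2a* dKO over *Nf1*/*p53* dKO (horizontal axis), with its unadjusted 95% interval (black) and the range of the value when each line is left out in turn (orange). The gray band holds the 5th to 95th percentile of all genes tested; *Slc40a1*, at 2.50, is the gene outside it.

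Ordered by the median level per kilobase of exon over the 6 lines, the genes ran *Ftl1* (3336 CPM per kilobase), *Fth1* (1104), *Gpx4* (208), *Acsl4* (68.6), *Tfrc* (54.9), *Slc11a2* (10.8), *Ncoa4* (9.58), *Steap3* (8.13), *Aifm2* (4.56) and *Slc40a1* (0.220). *Ftl1* ranked between 5 and 13 among the genes tested in each line, and *Slc40a1* between 10252 and 13956. The line ranges of *Ftl1*, *Fth1* and *Gpx4* did not overlap those of the next gene in the order. *Acsl4* and *Tfrc* overlapped, as did each neighboring pair from *Slc11a2* down to *Aifm2*, so their order is not larger than the spread between lines.

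Lines of one genotype differed from each other in most of these genes. Tested over cultures, which measures only the spread between cultures of a line, 7 of the 10 genes differed between the *Nf1*/*p53* dKO lines, where 73.2% of 14690 genes did, and 9 of the 10 between the *Nf1*/*Cdkn2a* dKO lines, where 56.8% did (edgeR, adjusted p under 0.05). *Gpx4*, *Aifm2* and *Slc40a1* did not pass among the *Nf1*/*p53* dKO lines (adjusted p = 0.335, 0.192 and 0.601 by edgeR), and *Fth1* did not among the *Nf1*/*Cdkn2a* dKO lines (0.412). The widest spreads among *Nf1*/*p53* dKO lines were those of *Steap3* (highest over lowest line 2.54) and *Ncoa4* (2.01). Among *Nf1*/*Cdkn2a* dKO lines they were those of *Slc40a1* (4.33) and *Tfrc* (1.86). The highest line exceeded the lowest by more than 1.5 times for 4 of the 10 genes among *Nf1*/*p53* dKO lines (57% of all genes) and for 6 of the 10 among *Nf1*/*Cdkn2a* dKO lines (42.2%).

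The number of the 10 that were called depended on the unit of replication. With the 18 cultures entered as separate samples, edgeR called *Ftl1*, *Fth1* and *Slc40a1* higher and *Slc11a2* and *Steap3* lower in *Nf1*/*Cdkn2a* dKO, 5 of the 10, where it called 46.5% of 13110 genes. DESeq2 on the same 18 cultures called those 5 and *Gpx4*, where it called 48.9%.

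A list of 128 other genes of iron metabolism and ferroptosis was read in the same fit. Of these, 115 entered the test and none passed at an adjusted p under 0.05 by edgeR, 23 had an unadjusted p under 0.05 (12 higher and 11 lower in *Nf1*/*Cdkn2a* dKO), where 22.4% of all genes did, and DESeq2 on the 6 lines called 13, where it called 14.3% of all genes. Neither count exceeded the share over all genes. The lines did not overlap for 19 genes higher and 12 lower, 27.0% of the list against 31.4% of all genes. The median log2 fold change of the list was 0.04.

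Among the 10 genes tested for iron uptake and reduction, the metalloreductase *Steap2* had the highest log2 fold change (0.81 ± 0.32 SE). Transferrin receptor 2 (*Tfr2*) had the lowest (-5.41 ± 0.999 SE, edgeR adjusted p = 0.0522), and its lines did not overlap. *Tfr2* was counted 37, 14 and 15 times in *Nf1*/*p53* dKO lines and 1, 0 and 0 times in *Nf1*/*Cdkn2a* dKO lines. DESeq2 on the 6 lines (adjusted p = 0.00695) and edgeR with raw library totals (0.0467) called *Tfr2*. With any 1 line left out edgeR did not (adjusted p 0.0825 to 0.159). Of 5 genes for chaperones, storage and oxidation, ceruloplasmin (*Cp*), the ferroxidase that works with ferroportin, was at 26.1, 5.23 and 34.1 CPM against 45.3, 86.8 and 147 CPM (edgeR adjusted p = 0.162), and its lines did not overlap. The related ferroxidase *Heph* had the lowest value there, at 7.14, 2.12 and 12.4 CPM against 0.144, 0.0577 and 10.7 CPM, where *Nf1*/*Cdkn2a* dKO line 3 alone lay with the first genotype. Of 5 genes for iron sensing, iron regulatory protein 2 (*Ireb2*), which binds the hairpins above, was the highest (log2 fold change 0.19 ± 0.12 SE) and the protease *Tmprss6*, which limits hepcidin, the lowest (-1.13 ± 0.66 SE). *Tmprss6* was counted only 12, 17 and 37 times against 10, 13 and 4 times, and its lines overlapped. The hepcidin genes *Hamp* and *Hamp2* had 0 counts in every line.

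The 19 genes of mitochondrial iron and iron-sulfur assembly ran from *Cisd3* (log2 fold change -0.69 ± 0.22 SE), an iron-sulfur protein, to ferredoxin reductase *Fdxr* (0.47 ± 0.26 SE). The 17 genes of heme synthesis and transport ran from *Flvcr2* (-0.99 ± 1.02 SE) to the heme exporter *Flvcr1* (0.59 ± 0.21 SE). Among 26 genes that restrain ferroptosis, *Nfe2l2*, which encodes the antioxidant regulator NRF2, was at 129, 122 and 131 CPM against 234, 196 and 270 CPM. Its lines did not overlap and it lay just outside the threshold (log2 fold change 0.87 ± 0.16 SE, edgeR adjusted p = 0.0512). It was called by DESeq2 on the 6 lines (adjusted p = 5.82e-05), by limma-voom (0.000469) and by edgeR with no filter on low counts (0.0491), and not by edgeR with any 1 line left out (0.0812 to 0.154). The lowest of that group was the microsomal glutathione transferase *Mgst1* (-1.11 ± 0.79 SE). Among 33 genes tested that favor ferroptosis, *Sat1*, the polyamine-degrading acetyltransferase and a known p53 target, was at 97.9, 50.9 and 34.5 CPM against 221, 317 and 296 CPM (log2 fold change 2.19 ± 0.40 SE, edgeR adjusted p = 0.0521). DESeq2 on the 6 lines (adjusted p = 5.53e-06), limma-voom (5.78e-06) and edgeR with no filter (0.0348) called it, as did edgeR without *Nf1*/*p53* dKO line 1 (2.71, adjusted p = 0.0387). With any other line left out edgeR did not call *Sat1* (adjusted p up to 0.144). The lowest was the lipoxygenase *Alox5*, counted 15, 51 and 216 times against 3, 1 and 4 times.

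**Figure D4:**
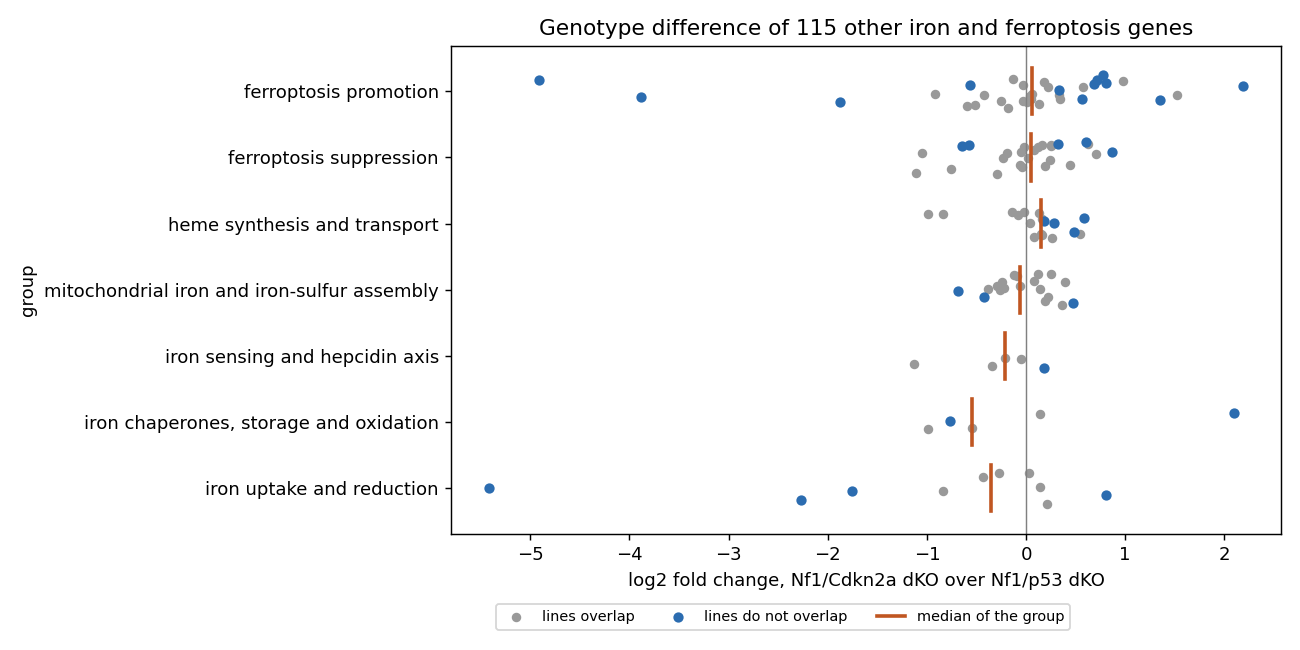
Log2 fold change of the 115 other iron and ferroptosis genes tested (horizontal axis), by group. Blue points are genes whose lines do not overlap between genotypes, gray points those that overlap, orange ticks the group medians; the lowest values, of *Tfr2* and *Alox5*, rest on few or no reads in *Nf1*/*Cdkn2a* dKO lines and depend on the prior count of the fit. Points are spread vertically for legibility.

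The letters TGACNNNGC, the core of the antioxidant response element bound by NRF2, were searched on both strands of the RefSeq promoter windows of GRCm38.p6 (250 bases before to 50 after a start). They were in 12.4% of 32851 windows and in 1 of 18 windows of 8 of the 10 genes, a window of *Ncoa4*. *Slc40a1* and *Slc11a2* had no window. Sites farther from a start were not searched, so a window without the letters does not show that a gene lacks such an element. The paper counts *Fth1* among the NRF2 targets that it measured by RT-qPCR in whole tumors. It reports NRF2 targets as up-regulated in *Nf1*/*Cdkn2a*-deleted tumors and lines. By RT-qPCR it also reports more *Nfe2l2* transcript in those lines and tumors.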

How the data were processed

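RNA was extracted with TRIzol from 3 cultures of each of 6 lines, and a company made and sequenced the libraries. The authors deposited raw read counts, whole numbers per gene and library without normalization. The submitters' processing notes list CASAVA, STAR 2.5 and DESeq2 1.14.1 and the builds GRCm38 and mm10 without roles. The counting tool, its strand setting and the annotation are not given in the sources used here. Reads of near copies and of overlapping genes can therefore have been split or lost, and positions come from GENCODE M21, which holds 34490 of the 35275 identifiers. The study calls the cultures of a line independent samples, but all come from 1 tumor, so p-values over cultures measure only the spread between cultures of these lines.

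The cultures of each line were added up, low genes were removed by filterByExpr (at least 10 counts, 15 in total), and TMM factors set the scale. Levels of single cultures used separate TMM factors, computed over the cultures. Genotypes were compared in edgeR 4.0.16 by its quasi-likelihood test, with Benjamini-Hochberg adjustment over every gene tested. R 4.3.3, DESeq2 1.42.0 and limma 3.58.1 served the alternatives. Lines within a genotype were compared with the same test over cultures. With 3 lines a genotype, exact two-sided permutation reaches p = 0.1 at best. No 2 cultures of a line were repeats of one library (chi-square per degree of freedom 3.50 to 27.1). Near copies were found with BLAST 2.17.0 at 90% identity over 200 bases. Levels per kilobase use the union of annotated exons. Steps were tested on simulated data, and Python 3.11.15 with pandas 2.3.3 and matplotlib 3.10.9 made the summaries and plots.

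The 10 genes and the gene lists were chosen with earlier results of these data known. The genes named are the 10, some of their annotated copies, the targeted genes, and every called gene and the highest and lowest tested gene of each group of the list. Alternatives were the tool, the 18 cultures as samples, the normalization, the filter, a block, each line or culture left out, and near copies summed.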

Additional observations from a re-analysis of the deposited data

Results flagged for a closer look

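*Gpx4* in 1 culture of *Nf1*/*p53* dKO line 1, at 292.5 CPM, was farther from the other 8 cultures of its genotype than Dixon's 95% criterion allows. It was the 1 group flagged of 20 tested (10 genes in 2 genotypes, 9 cultures each), and chance flags about 1 in 20 groups of independent samples. The 9 cultures come from 3 lines and are not independent, so that rate need not hold here.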

How the results depend on the processing

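The 274 genes called between genotypes became 2167 with DESeq2 on the 6 lines, 6096 with edgeR and 6409 with DESeq2 on the 18 cultures, 2173 with limma-voom and 423 with raw library totals, and 0 to 172 when 1 line was left out (0 without *Nf1*/*Cdkn2a* dKO line 1, where 2668 genes had an unadjusted p under 0.05). Of the 10 iron and ferroptosis genes, these called 1, 5, 6 and 1 in the first 4 fits, and none with raw totals or with any 1 line left out. Of the other iron and ferroptosis genes, they called 13 of 115, 41, 45 and 16 of 109, and 1 of 115; no filter called 2 of 125, and leaving out 1 line called 0 to 1 of 115 to 117. Raw totals moved the median log2 fold change of all genes by -0.13 and that of *Tfrc* to -0.066, and split the calls into 86 higher and 337 lower. *Ncoa4* changed sign to 0.0037 with limma-voom and 0.015 with its near copy summed. Over the lines left out in turn, *Ncoa4* ranged from -0.24 to 0.29, *Aifm2* from -0.32 to 0.063, *Tfrc* from -0.15 to 0.28 and *Flvcr2* from -1.51 to 0.50; *Heph* was -6.14 without *Nf1*/*Cdkn2a* dKO line 3. Line and culture numbers are shared between genotypes but same-numbered samples did not consistently deviate together (correlations -0.13 to -0.09 for line numbers, and -0.13 to 0.20 over 45 pairs for culture numbers). With the line number as a block, 0 genes were called (2878 at an unadjusted p under 0.05) and *Ncoa4* was 0.020; with the culture number as a block, 6007 genes, 4 of the 10 and 41 of the list were called. The line differences within a genotype kept their counts within 1.5 times in every alternative run, the culture block included (10666 and 8273 genes). The causes were not tested. *Slc40a1*, at 23 to 305 reads per line, is the gene of the 10 whose depth limits its value most.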
